A study of Mus musculus with 24 samples.

Results

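The regions described here are 659 stretches of macrophage chromatin that carried a called ATAC-seq peak at rest and had lost it after lipopolysaccharide (LPS) plus interferon gamma (IFNγ). They are 659 of 102580 regions obtained by merging the peaks of all 24 libraries wherever at least 1 bp overlapped. A region was taken when at least 11 of the 12 unstimulated libraries and at most 1 of the 12 stimulated libraries had a peak in it. The regions were thus chosen by their peak calls in the stimulated against unstimulated contrast itself, and the number of libraries with a peak is given below as a description, with no test. "Closed" stands for the loss of a called peak: a region without one lay below the calling threshold of its library, a q-value of about 0.05.

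ATAC-seq marks open chromatin by the insertions of the Tn5 transposase. Macrophages were grown from bone marrow of male C57Bl/6 mice, which were either made diabetic with streptozotocin, a beta cell toxin, or left as non-diabetic controls. The 4 groups of 6 libraries are unstimulated control, unstimulated diabetic, stimulated control and stimulated diabetic, and stimulation was with 100 ng/mL LPS and 10 ng/mL IFNγ. No transgene or engineered allele is named for any group, and all cells are primary cultures. Per the series description, every mouse sample was divided between the resting and the stimulated state. The labels do not tie a replicate number to a mouse, so the p-values below measure the spread between libraries. The stimulation time is uncertain, since the protocol in the labels gives 6 h of culture only for an IL-1β treatment that no group carries.

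Resting macrophages keep many distal enhancers open, mostly at sites where the lineage factor PU.1 works with C/EBP, AP-1, RUNX and MEF2 proteins. LPS acts through Toll-like receptor 4 and NF-kB, and IFNγ through its own cell surface receptor. Both signals together drive classical activation, in which new enhancers are opened and part of the enhancers of the resting state is shut. Genes for prostaglandin breakdown, scavenging, lysosomal function and adhesion belong to the resting programme of these cells.

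The cell type label was checked with marker genes. Each unstimulated library had peaks at all 10 macrophage marker genes and each stimulated library at 9 or 10. Of the other lists, 3 of 10 neutrophil genes (Ly6g, Elane, Ngp), 5 of 10 T and NK cell genes (Cd3e, Cd3g, Cd8a, Ncr1, Gzma) and 2 of 8 B cell genes (Cd79b, Vpreb1) had no peak in any library. Genes of other cell types were not free of peaks: an unstimulated library had peaks at 5 to 7 of 10 neutrophil, 4 or 5 of 10 T and NK cell, 1 to 4 of 8 B cell and 5 to 7 of 8 dendritic cell genes. The corresponding counts were 4 to 6 of 8 stromal and endothelial, 4 of 8 erythroid and megakaryocyte, and 1 or 2 of 6 mast cell and basophil genes, and their part in the results was not tested. A peak at a gene is not expression of it, and 0 of the 659 regions was assigned to a gene of any of the 8 marker lists. In bulk chromatin, fewer cells with an open site and less opening per cell cannot be told apart.

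Few closed regions touched a gene start, and their sequence is shown because it is the only sequence of closed regions in the sources used here. Among 32851 RefSeq promoter windows (250 bases before to 50 after the start, assembly GRCm38.p6, the chromosomes of mm10), 9 closed regions overlapped one. Of the 9, the stretches for Tlr8 and Spef1l were the only ones with a match to the motifs below, and those for Angpt4 and Olfr67 are shown as examples without one. The part of these 4 that lies upstream of the start and inside the region is printed 5′ to 3′ on the strand of the gene, with motif matches in capitals. They are chrX:167264330-167264423 (minus strand) before Tlr8, an endosomal receptor for single-stranded RNA; chr7:139978756-139978943 (minus) before Spef1l; chr2:151911031-151911206 (plus) before Angpt4, an angiopoietin that binds the Tie2 receptor; and chr7:103791831-103792080 (minus) before Olfr67, an odorant receptor gene.
Tlr8: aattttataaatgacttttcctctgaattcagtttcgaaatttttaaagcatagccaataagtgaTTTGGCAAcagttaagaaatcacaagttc
Spef1l: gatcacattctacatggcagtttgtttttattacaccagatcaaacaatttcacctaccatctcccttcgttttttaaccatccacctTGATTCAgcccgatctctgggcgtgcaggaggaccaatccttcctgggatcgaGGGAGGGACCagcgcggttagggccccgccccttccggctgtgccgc
Angpt4: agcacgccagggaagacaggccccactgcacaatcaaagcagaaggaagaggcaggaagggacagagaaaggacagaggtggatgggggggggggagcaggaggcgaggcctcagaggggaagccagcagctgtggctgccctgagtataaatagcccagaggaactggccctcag
Olfr67: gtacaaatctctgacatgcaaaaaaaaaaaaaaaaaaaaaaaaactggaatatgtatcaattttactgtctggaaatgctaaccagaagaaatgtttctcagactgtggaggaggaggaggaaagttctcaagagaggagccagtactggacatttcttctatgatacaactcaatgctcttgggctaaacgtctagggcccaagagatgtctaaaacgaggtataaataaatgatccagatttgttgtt

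Both strands were searched for 16 motifs, matched letter by letter: PU.1/ETS (GAGGAAGT), AP-1 (TGANTCA), CRE (TGACGTCA), the MiT/TFE E-box (TCACGTG), IRF (GAAA again after any 2 bases), NF-kB (GGGA and CC around any 4 bases), STAT (TTCNNNGAA), C/EBP (TTGCNNAA), RUNX (TGTGGTT), MEF2 (CTA and TAG around any 4 bases), KLF (CCACACCC), LXR (AGGTCA again after any 4 bases), PPAR (AGGTCA again after any base), CTCF (CCAC and AGGTGGC around any base), EGR (GCGTGGGCG) and NFE2L2 (TGACNNNGC). The Tlr8 stretch held a C/EBP match on the opposite strand from base 66, and 3.15% of all promoter windows held one in the same 94 bases before the start. The Spef1l stretch held an AP-1 match from base 89 and an NF-kB match from base 142, found in 5.17% and 14.2% of promoter windows over the same 188 bases. The Angpt4 and Olfr67 stretches held none of these letters, which says nothing of the factors. The matches do not overlap one another, and a match is a description of letters, not a bound site.

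All 4 detection patterns that the rule allows were common. A peak was present in 12 unstimulated and 0 stimulated libraries for 141 regions, in 12 and 1 for 194, in 11 and 0 for 140, and in 11 and 1 for 184. They were 1.78% of the 36924 regions found in at least 11 unstimulated libraries, and this share is the background against which every list of genes below is read. The opposite pattern, at least 11 stimulated and at most 1 unstimulated library, was met by 596 regions, called opened regions below.

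In single unstimulated libraries, the number of closed regions with a peak was 654, 612, 651, 618, 637 and 645 in control replicates 1 to 6. It was 641, 646, 644, 638, 601 and 597 in diabetic replicates 1 to 6. The lowest counts came from the shortest lists, diabetic replicates 5 and 6, with 49837 and 50054 peaks. After stimulation the count was 15, 7, 8, 11, 25 and 35 in control replicates and 57, 23, 83, 31, 10 and 73 in diabetic replicates.

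The remaining peaks after stimulation were spread unevenly over libraries and moved with list length. The diabetic libraries with 57, 83 and 73 remaining peaks had the longest stimulated lists, 56932, 58016 and 57100 peaks, while the control libraries had 41385 to 54960. Of the 378 regions with a single stimulated peak, 277 had it in a diabetic and 101 in a control library. When every list was cut to the 41385 peaks with the highest −log10 q and the rule was applied afresh, the 449 regions so chosen had 12 to 22 stimulated peaks per control and 13 to 29 per diabetic library. The part of list length in the difference between phenotypes was not tested beyond this cut.

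**Figure D1:**
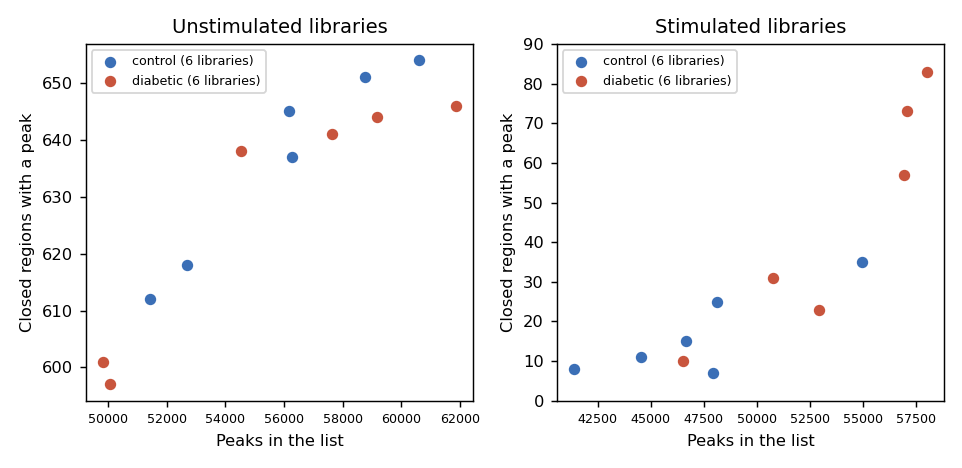
Number of the 659 closed regions with a peak (vertical axis) against the number of peaks in the library's list (horizontal axis), for 12 unstimulated libraries (left) and 12 stimulated libraries (right); each point is 1 library, and the vertical axis of the left panel does not start at 0. Libraries with longer lists mostly had higher counts in both panels, which run from 597 to 654 at rest and from 7 to 83 after stimulation.

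The design cannot test diabetes at single closed regions. The rule leaves at most 1 library of variation in each state, so the smallest p of Fisher's exact test, 6 diabetic against 6 control libraries, was 1 at all 659 regions. Over all regions, 0% of 8788 testable regions at rest and 0% of 9681 after stimulation passed the Benjamini-Hochberg adjusted threshold of 0.05. At an unadjusted p under 0.05 there were 137 at rest and 292 after stimulation, with 0 closed regions among them. At rest, the missing library of the 324 regions found in 11 libraries was diabetic for 187 and control for 137.

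Most closed regions were peaks of below-median strength at rest. The fold enrichment and p-value of each deposited peak were solved together for the number of tags, the sequenced fragments' ends counted at the summit. The median over closed regions was 13 tags, with a range of 8 to 34, and the smallest peaks of any library had 5 or 6 tags. Their median fold over the local background was 5.80 (3.55 to 10.8), and the median −log10 q was 6.95 (3.46 to 19.6). Ranked by −log10 q within each library's own list, the median closed region stood at percentile 37.5, and the regions found in at least 11 libraries of both states at percentile 74.1. A median percentile of at least 50 was reached by 107 closed regions, and one of at least 90 by 0.

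By medians, the single peak left after stimulation was weaker than the resting peaks. Over the 378 regions with 1 stimulated peak, its median was 9 tags, a fold of 4.58 and a −log10 q of 4.02. Resting medians of these regions were 12 tags, 5.92 and 7.13. Folds were also lower after stimulation at regions open in both states, where library medians had a mean of 9.32 at rest and 7.93 after stimulation. The part of this general shift in the weaker single peaks was not tested. At some regions, such as Tlr8 and Spef1l, the stimulated fold was above the resting median. The stimulated summit lay within 100 bp of the median resting summit in 331 regions (87.6%). The merged regions had a median width of 399 bp, which limits how far apart summits can lie. Being chosen for few stimulated peaks, the regions also favour a weak one. These values describe peaks that passed the caller and carry no test.

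At the edges of the rule, values changed little. The 1027 regions just outside it, with 10 unstimulated or 2 stimulated libraries, had a median −log10 q of 6.20, a median fold of 5.60 and 11 tags. The 659 regions inside had 6.95, 5.80 and 13. The exact membership depended on the peaks used. With lists cut to equal length, 161 of the 659 regions met the rule again. The 498 others kept a peak in fewer than 11 unstimulated libraries; a cut can only remove peaks. The dropped regions stood at a median percentile of 33.8 and the kept ones at 51.6.

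Closed regions lay away from gene ends. With protein-coding genes of the RefSeq table, whose entries carry no strand or exons, 25 of 659 (3.79%) lay no further than 1 kb from a gene's start or end. It became 6.24% with lists of equal length and 7.28% with all genes of the table. The share was 33.5% of the 27216 regions found in at least 11 libraries of both states, 3.69% of opened regions and 17.04% of the 80598 regions found in at least 2 libraries. The median distance to a gene end was 21159 bp for closed regions and 7346 bp for the regions open in both states.

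Most closed regions were still inside genes. The share inside a gene body was 56.4% of closed, 61.9% of regions open in both states, 56.0% of opened and 58.0% of all regions. A further 17.5% of closed regions lay over 50 kb from any protein-coding gene, against 9.49% of regions open in both states. Exons and introns were not resolved.

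Distance from gene ends was shared with other regions that lost fewer libraries. Among regions in at least 11 unstimulated libraries, 3.56% of those with 0 stimulated libraries, 3.97% with 1, 5.09% with 2, 5.16% with 6, 10.1% with 10, 13.6% with 11 and 36.5% with all 12 lay within 1 kb of a gene end. Peak strength moved with this share: the median percentile was 36.9 at 0, 43.5 at 6, 53.2 at 11 and 77.4 at 12 stimulated libraries. The part of peak strength in the position of closed regions was not tested.

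**Figure D2:**
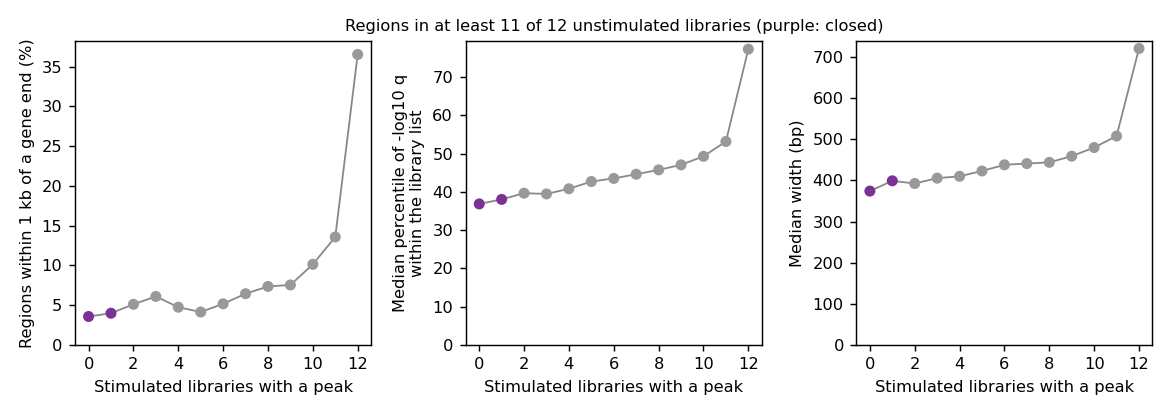
Regions found in at least 11 of 12 unstimulated libraries, by the number of stimulated libraries with a peak (horizontal axis): share within 1 kb of a gene end in percent (left), median percentile of −log10 q within the library's list (middle) and median width in bp (right). Closed regions (purple, 0 and 1) have 3.56% and 3.97% at gene ends, and the regions found in all 12 stimulated libraries have 36.5%, the highest percentile and the largest width.

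Most genes nearest a closed region had a region open in both states at an end. Assignment to the nearest protein-coding gene body within 50 kb gave 510 genes for 544 closed regions, and 115 regions had none. A region open in both states lay at an end of 327 of the 510 genes (64.1%), while 8 (1.57%) had a region called lost and 4 (0.784%) a region called gained at an end. The corresponding shares over the 13030 genes with any region in at least 11 unstimulated libraries were 70.1%, 1.83% and 0.913%. No region other than a closed one lay at an end of 93 of the 510 genes and of 2119 of the 13030. Genes with a closed region were longer, with a median length of 64444.5 bp against 25495.5 bp. Each gene was counted once, and a long gene can be assigned many regions. Longer genes may thus come with any set of regions, and the difference was not tested. The nearest gene need not be the one a region acts on.

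Mrc1 and Sgk1 show both directions at a gene end. Mrc1, the mannose receptor of resting and alternatively activated macrophages, had a lost region at an end besides its closed region. Sgk1, a kinase activated downstream of PI3K, had a gained region there.

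The 10 leading regions, those with 12 unstimulated and 0 stimulated libraries and the highest median −log10 q, had median folds of 6.66 to 9.98, where the median over all closed regions was 5.80. They were picked on −log10 q, which moves with the fold, so this is no finding. Their values are given as the fold at the summit in the 12 unstimulated libraries, since there is no stimulated value.

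Hpgd encodes the enzyme that starts the inactivation of prostaglandins. Its leading region, chr8:56313645-56314002 inside the gene, had a lowest fold of 6.18, a median of 9.91 and a highest of 11.4. In each phenotype 1 library stood below the others, and the medians were 9.91 in control and 9.80 in diabetic libraries. A second Hpgd region, chr8:56284818-56285354, lay 9466 bp outside the gene, with a lowest fold of 4.89, a median of 6.75 and a highest of 9.40. It had 1 stimulated peak, of fold 4.26, in diabetic replicate 2, and it fell out of the rule in lists of equal length.

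Beside the leading Hpgd region, 1244 bp away, chr8:56315246-56315547 was found in 12 unstimulated and 2 stimulated libraries, a loss by Fisher's exact test (Benjamini-Hochberg adjusted p = 0.00128). A further Hpgd region, chr8:56299350-56299743, was lost from 10 libraries to 0 with the same adjusted p, and both missed the rule by 1 library. Alox5ap, the protein that hands arachidonic acid to the enzyme making leukotrienes, held the third closed region of the eicosanoid list. It was found in 11 unstimulated and 0 stimulated libraries, with a low median fold of 4.20.

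Slc7a13 encodes an amino acid transporter best known from kidney. The region assigned to it, chr4:19856093-19856620, lay 14143 bp from the gene and had folds of 6.89 at the lowest, 9.41 at the median and 13.4 at the highest. The spread over libraries was wide in both phenotypes. At 5023 bp from it, a region at chr4:19850801-19851070 was found in 0 unstimulated and 6 stimulated libraries (Fisher's exact test, adjusted p = 0.0489). That call did not pass when p-values were adjusted over all regions in at least 2 libraries (adjusted p = 0.126).

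Myo10 encodes an unconventional myosin of filopodia that also takes part in phagocytosis. Its region inside the gene, chr15:25764622-25765149, had folds of 6.35, 9.98 and 11.4 (lowest, median, highest). Sdc4, a cell surface heparan sulfate proteoglycan that works with integrins, had a region inside the gene at chr2:164441144-164441588 with folds of 5.48, 6.66 and 7.86. The Sdc4 region had the highest tag count of the 10, a median of 31 tags, so its moderate fold stood on a high local background. A region 1164 bp away was found in all 24 libraries.

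Fnip2 encodes a partner of folliculin, which controls mTORC1 and the MiT/TFE factors at the lysosome. Its region, chr3:79539668-79540030, had folds of 5.94, 7.27 and 9.03 (lowest, median, highest) and a median of 26 tags. Slc17a5 encodes sialin, which carries sialic acid out of lysosomes, and its region chr9:78578871-78579262 had folds of 6.22, 9.61 and 12.6. Both lay inside the gene, and the groups overlapped over most of their range at both.

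Celf6, an RNA-binding protein of the CELF family, had its region at chr9:59598493-59598874, with folds of 6.66, 9.19 and 11.5. Medians were 7.90 in control and 10.7 in diabetic libraries. In 5 of 6 diabetic libraries the fold lay above every control value, and diabetic replicate 6 was low, at 6.78. This difference was seen after the values were known and was not tested, since folds rank peaks within a list only.

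The region assigned to Btbd8, at chr5:107521947-107522306, lay 9566 bp outside the gene and had a median fold of 8.25. The last 2 leading regions had no protein-coding gene within 50 kb. These lay at chr13:97548531-97548998, with a median fold of 7.37, and at chr12:32602097-32602574, with a median of 9.33. Regions found in at least 11 libraries of both states lay within 10 kb of the chromosome 13 region and of the Btbd8 region. The same held for the leading regions of Myo10, Sdc4, Fnip2, Slc7a13 and Slc17a5.

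**Figure D3:**
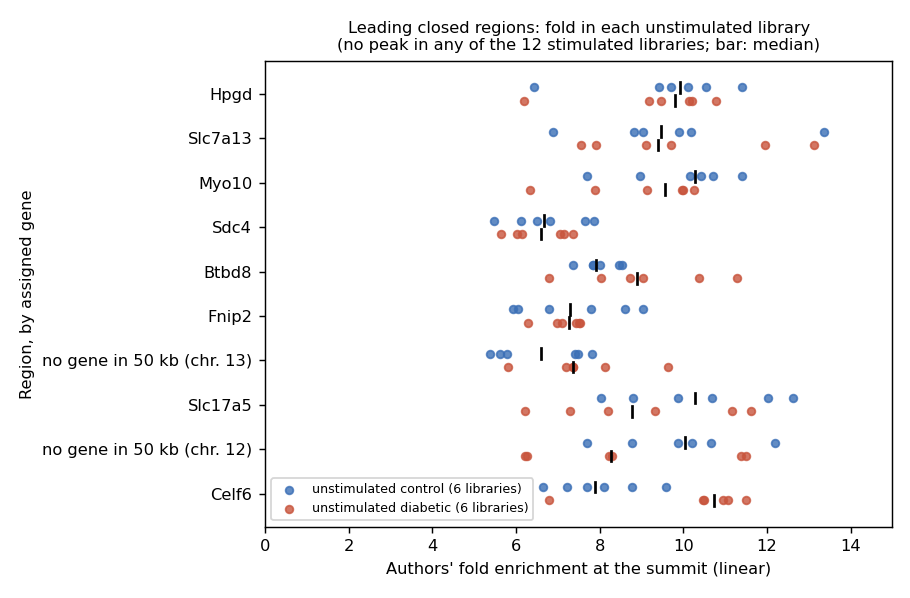
Authors' fold enrichment at the summit (horizontal axis, linear) for the 10 leading closed regions (vertical axis, by assigned gene), 1 point per unstimulated library, blue for the 6 control and red for the 6 diabetic libraries, with black bars at the group medians. No stimulated library had a peak in any of them; the groups overlap at every region, and the Celf6 medians are 7.90 and 10.7.

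Gene lists are described by the closed regions assigned to their genes, out of the regions of those genes found in at least 11 unstimulated libraries. Over 12 lists with 310 genes, 46 closed regions lay at 36 genes, 46 of 1317 regions or 3.49%, against the 1.78% over all. Several genes were put on the lists because their regions were already known to lead (Hpgd, Myo10, Sdc4, Pik3r1, Slc17a5, Lyst, Fnip2), so these shares are no independent evidence of a theme. The other 613 closed regions lay outside the lists. For the remaining regions of a list that could be tested, the count called lost or gained is read against 17.2% lost and 9.38% gained over all 30560 tested regions that are not closed regions. Stimulated lists were shorter, with a mean of 50485 peaks against 55756 in unstimulated libraries. When lists were cut to equal length, these background shares became 14.3% lost and 13.4% gained. The part of list length in the excess of losses was not tested.

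The lysosome list had 5 closed regions among 112 (4.46%). Lyst encodes a regulator of lysosome size whose loss causes Chediak-Higashi syndrome, and its region chr13:13648970-13649489 had folds of 6.05, 9.24 and 11.4 (lowest, median, highest) with 12 unstimulated and 0 stimulated libraries. Slc17a5 had a second region, 3798 bp outside the gene, found in 11 and 0 libraries with a median fold of 5.16. Psap, the precursor of the saposins that help to break down sphingolipids, had one in 12 and 0 libraries with a median fold of 6.66 and 21 tags. Of 80 other tested regions of the list, 15 were lost and 4 gained. A gained region, found in 0 unstimulated and 7 stimulated libraries, lay 3623 bp from the Psap region; adjusted over all regions it did not pass (Fisher's exact test, adjusted p = 0.0606).

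Genes of PI3K, insulin and IGF signalling had 7 closed regions among 168 (4.17%). Pik3r1 encodes the main regulatory subunit of class I PI3K, and its region, chr13:101760284-101760666, had folds of 5.89, 6.98 and 9.09 in 12 unstimulated and 0 stimulated libraries. Pik3cb, a catalytic subunit, had a region with a median fold of 6.42 in 12 and 1 libraries. A further region 1549 bp from it was lost, found in 10 and 1 libraries (Fisher's exact test, adjusted p = 0.00622).

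Further along the same pathway, Rptor, the substrate-binding subunit of mTORC1, had 2 closed regions with median folds of 6.05 and 6.22, each with 1 stimulated peak. Phlpp1, a phosphatase that acts on Akt, had 2, with median folds of 6.05 and 6.36 and at 32561 and 27037 bp outside the gene. Sgk1 had 1, in 11 and 1 libraries. Of 143 other tested regions of the list, 29 were lost and 16 gained.

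The adhesion, phagocytosis and cytoskeleton list had 7 closed regions among 214 (3.27%). Besides Myo10 and Sdc4, Itga4, the alpha-4 integrin chain that binds VCAM-1 and fibronectin, held 3 closed regions inside the gene over 65051 bp. Each was found in 12 unstimulated libraries and 1 stimulated library, with median folds of 4.13, 6.11 and 7.14. Vav1, a signalling protein of blood cells, had a region with a median fold of 7.95 and 24.5 tags. Dock10 had a weak one of median fold 4.36. Of 165 other tested regions, 35 were lost and 28 gained.

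Mrc1 gave the only closed region of the alternative activation list, 1 of 75 (1.33%), with folds of 4.98, 7.07 and 9.27 in 11 and 0 libraries. Next to it, 2556 bp away, another Mrc1 region was lost, from 12 to 4 libraries (adjusted p = 0.0101), and 1 more, 9475 bp away, was gained, from 6 to 12 (adjusted p = 0.0489, both by Fisher's exact test). Adjusted over all regions in at least 2 libraries, the Mrc1 loss kept its call (adjusted p = 0.0261) and the gain did not (adjusted p = 0.126). Over the list, 15 of 54 other tested regions were lost and 3 gained. Cd36, a scavenger receptor for oxidised lipoproteins, gave the only closed region of the lipid handling list, 1 of 108 (0.926%). Its folds were 4.93, 5.33 and 6.64 in 12 and 0 libraries. Of 77 other tested regions of that list, 20 were lost and 7 gained.

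Ccr3, the eotaxin receptor, and P2ry12, an ADP receptor, gave 2 of 73 regions (2.74%) of the chemoattractant and nucleotide receptor list, with median folds of 6.21 and 7.19. The Ccr3 region lay 1025 bp outside the gene. The P2ry12 region lay inside 2 overlapping gene bodies and was assigned to the one with the nearer end. A region 2951 bp from that of Ccr3 fell from 9 libraries to 0 (Fisher's exact test, adjusted p = 0.00388). Of 47 other tested regions of this list, 5 were lost and 4 gained. The eicosanoid list, with Hpgd and Alox5ap, had 3 closed regions among 70 (4.29%), and 8 of 62 other tested regions were lost and 8 gained.

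Closed regions also lay at genes that restrain inflammatory signalling. The list of negative feedback genes had the highest share, 7 of 105 (6.67%). Irak3, an inhibitory kinase-like protein of Toll-like receptor signalling, had 2, both found in 11 and 0 libraries, with median folds of 5.67 and 4.76. Tnip3, a binding partner of A20, had 2, with median folds of 4.90 and 8.17, the stronger with a single stimulated peak of fold 6.52 in diabetic replicate 3. Nfkb1, the p105/p50 subunit of NF-kB, had a region in 12 and 0 libraries with a median fold of 5.56, and Tnfaip3, which encodes A20, one in 12 and 0 with a median fold of 5.14. Dusp1, a phosphatase of MAP kinases, had a region 4770 bp outside the gene with a median fold of 4.35. At equal list length, the Nfkb1 region and the stronger Tnip3 region met the rule again. Both Irak3 regions, the weaker Tnip3 region and those of Tnfaip3 and Dusp1 did not.

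These genes were not uniformly closed. Of 73 other tested regions of the negative feedback list, 15 were lost and 14 gained (20.5% and 19.2%). At Tnip3, 3 further regions within 10 kb of its closed regions were lost: found in 12 and 5, 9 and 0, and 11 and 4 libraries. Of these, the one found in 9 and 0 kept its call when adjusted over all regions (Fisher's exact test, adjusted p = 0.0100), and the others did not (0.0606 and 0.113). At Nfkb1, a region only 33 bp from the closed one was gained, from 0 to 9 libraries (Fisher's exact test, adjusted p = 0.00388).

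Classical activation genes had 5 closed regions among 107 (4.67%), while 24 of 88 other tested regions of the list were gained and 17 lost. Tlr2, the receptor for bacterial lipopeptides, had 2, with median folds of 7.30 and 6.16. Acod1, which makes itaconate, had 1 in 12 and 1 libraries with a median fold of 5.44. Its single stimulated peak, in diabetic replicate 2, had 28 tags at a fold of 2.69. The resting peaks of this region had 12 to 20 tags, so the tags at its summit were not fewer in that library. The costimulatory receptor gene Cd40 and the cytokine gene Lif had 1 closed region each, with 1 stimulated peak each. Interferon response genes had 2 among 47 (4.26%), at Gbp3, a guanylate-binding protein, and Trim25, a ubiquitin ligase of RNA sensing. In that list 21 of 48 other tested regions were gained (43.8%) and 7 lost.

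Myeloid transcription factors had 3 closed regions among 194 (1.55%), near the background, at Runx2, Mef2a and Fli1, with median folds of 7.19, 5.63 and 7.62 and 1 stimulated peak each. Of 134 other tested regions, 24 were lost and 13 gained. The cell cycle list had 3 among 56 (5.36%). Ccnd2, a D-type cyclin, had 1, and Mki67, a marker of dividing cells, had 2, with median folds of 5.56 and 5.91. Of 42 other tested regions, 7 were lost and 3 gained.

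Most genes had a single closed region: 480 had 1, 26 had 2 and 4 had 3. Besides Itga4, the 4 are App, the amyloid precursor protein, Ndst1, an enzyme of heparan sulfate modification, and Nedd4l, a ubiquitin ligase. The App regions were spread over 147411 bp inside the gene, with median folds of 6.58, 7.67 and 4.75. Of 20 App regions found in at least 11 unstimulated libraries, 11 were open in both states and 3 were closed. Nedd4l had 19 such regions, of which 9 were open in both states. Among all regions of each gene that are not closed regions, 2 were called lost at App and 7 at Nedd4l.

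At gene starts, 14 closed regions lay within 1 kb of a start site of the RefSeq promoter table. The Tlr8 region, chrX:167264023-167264423, reached across the start, with folds of 3.74, 4.79 and 6.84 in 12 unstimulated libraries and 1 stimulated peak of fold 5.36 in control replicate 6. The Spef1l region had a low median fold of 3.58 in 12 and 1 libraries, although its tag count was 24.5. Olfr67 had the strongest of the printed stretches, with folds of 5.15, 7.56 and 11.3 in 12 and 0 libraries, and it was 1 of the regions that met the rule again at equal list length. Angpt4 had folds of 3.90, 5.36 and 7.30 in 11 and 0 libraries.

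Other regions near a start were assigned to Sptssa, a subunit of serine palmitoyltransferase, Itpr3, an inositol trisphosphate receptor, and Ptprj, a receptor tyrosine phosphatase. Their median folds were 4.74, 5.50 and 5.84. Arhgap4 had a median of 4.40. No miRNA hairpin of the 1005 in the RefSeq table overlapped a closed region.

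The surroundings of closed regions were mixed. Within 10 kb lay 1393 other regions found in at least 2 libraries, 521 of them open in at least 11 libraries of both states. Of the 546 that could be tested, 120 were lost (21.98%, against 17.2% over all tested regions that are not closed regions) and 62 gained (11.4%, against 9.38%). The other 364 were not called. These calls use the same contrast as the rule, so the counts are descriptions.

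By distance, 15.4% of 52 tested neighbours within 1 kb were lost, 23.2% of 233 at 1 to 5 kb, 22.2% of 261 at 5 to 10 kb, 19.7% of 847 at 25 to 50 kb and 16.96% of 3237 at 100 to 250 kb. Around opened regions, 64 of 387 tested neighbours within 10 kb were lost and 64 gained, 16.5% each. A region open in both states lay within 10 kb of 352 closed regions (53.4%). Another closed region did so for 18, and an opened region for 13. These sets differ in size, with 27216 regions open in both states, 659 closed and 596 opened. The counts were not compared with those around other resting regions.

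**Figure D4:**
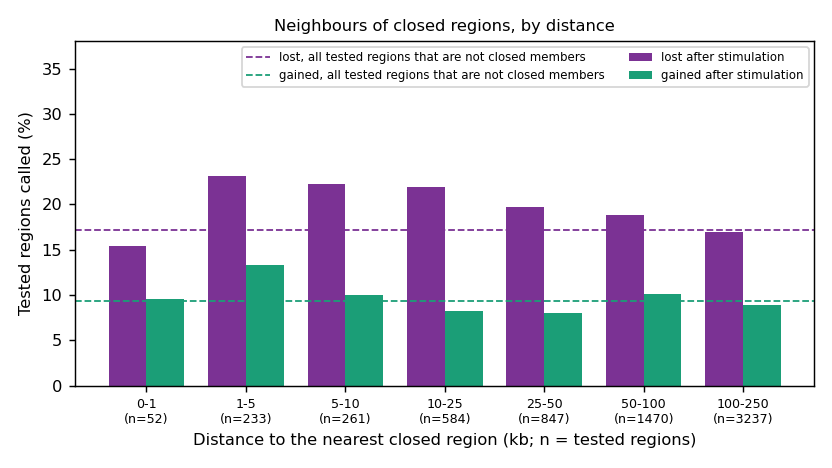
Share of tested regions called lost (purple) or gained (green) after stimulation, in percent, by distance to the nearest closed region in kb, with the number of tested regions under each pair of bars. Dashed lines give 17.2% lost and 9.38% gained over all tested regions that are not closed regions; the lost share is 23.2% at 1 to 5 kb and 16.96% at 100 to 250 kb.

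A closed and an opened region were assigned to the same gene in 38 cases, 7.45% of the 510 genes with a closed region and 8.24% of the 461 genes with an opened one. For scale, 13030 genes had any region in at least 11 unstimulated libraries. Genes with a closed region were longer than these, and the part of gene length in the overlap was not tested. The pairs below are therefore descriptions of single genes. At Srgn, serglycin, a proteoglycan of secretory granules, they lay 343 bp apart. The closed region was found in 12 unstimulated libraries and 1 stimulated library with a median resting fold of 5.003. The opened one was found in 1 and 12 with a median stimulated fold of 7.20. At Tenm4, a teneurin, they lay 546 bp apart, found in 11 and 1 and in 0 and 12 libraries.

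At Irak3, the opened region at chr10:120191193-120191551 lay 1745 bp from the closed region at chr10:120193296-120193592. Its stimulated folds were 5.32, 6.87 and 9.98 (lowest, median, highest), and the closed region had resting folds of 3.58, 4.76 and 6.26. A region 4035 bp from the closed one was lost, from 12 to 2 libraries (Fisher's exact test, adjusted p = 0.00128). Irak3 thus held regions of both directions within a few kilobases.

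Acod1 had its opened region 4801 bp from the closed one, found in 0 unstimulated and 11 stimulated libraries with a median fold of 3.42. Another region, 2262 bp away, was lost, from 8 libraries to 0 (Fisher's exact test, adjusted p = 0.0101). Nfkb1 had an opened region 36838 bp away with a median fold of 11.2, the highest of the opened regions at these 38 genes, and Tnfaip3 one at 17735 bp with a median fold of 5.87.

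Lpar3, a receptor of lysophosphatidic acid, had a closed and an opened region 3829 bp apart. Plpp3, an enzyme that removes the phosphate of this lipid, had them 3550 bp apart, and a second closed region inside the gene. Both pairs lay outside the gene body. At Lpar3 the closed region was 40717 bp and the opened one 45015 bp from the gene, and at Plpp3 they were 42624 and 38668 bp from it.

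**Figure D5:**
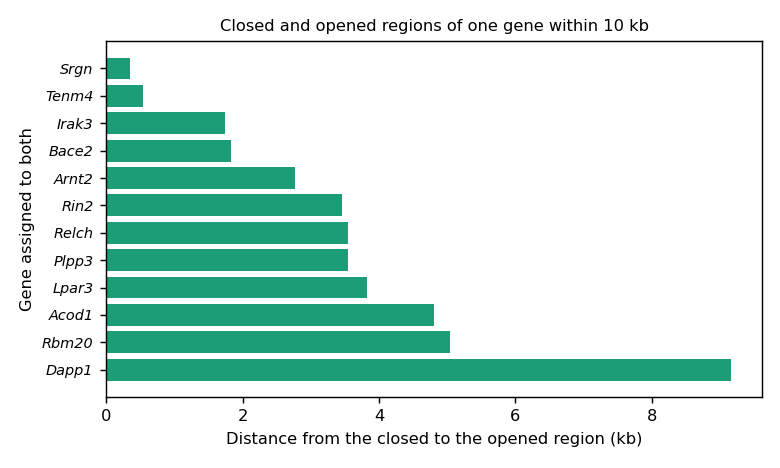
Distance in kb (horizontal axis, linear from 0) between the closed and the opened region of the 12 genes (vertical axis) whose 2 kinds of region lie within 10 kb of each other. Srgn (343 bp) and Tenm4 (546 bp) have the shortest distances, and Dapp1 (9164 bp) the longest of those shown.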

How the data were processed

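Single 50 bp reads of 24 libraries were sequenced from nuclei of 50000 cells each, per the labels' protocols. Per the submitters' processing notes, the tools were MACS2 2.1.1, Bowtie2 2.2.6, FastQC 0.11.3, Trim Galore, edgeR and DiffBind 2.4.8, on mm10. What settings they ran with, and any Tn5 shift, is not given in the sources used here. The authors deposited 1 peak list per library (41385 to 61861 peaks) with a score, a fold enrichment ratio at the summit, and −log10 p-values and q-values per peak. The deposited fold, score and −log10 values rank and filter peaks inside their own list alone. Where they are summarised over libraries or set side by side between groups, they are descriptions of lists that differ in depth, without a test.

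Peaks were merged, and each library was scored for a peak in every region (Python 3.11.15, pandas 2.3.3, SciPy 1.17.1). The fold and p-value of all 1274891 peaks were solved for a whole number of tags within 0.003 of the −log10 p; the lowest background, 0.664 to 1.01 tags, is the measure of depth, as no read totals were used here. Regions in at least 2 libraries were tested with two-sided Fisher's exact tests, 12 against 12 libraries, and adjusted by Benjamini-Hochberg over the 31219 regions whose detections could give p under 0.05. Of these, 18.9% were lost and 9.19% gained, closed regions included. The tests were tested on simulated data.

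Regions were assigned to the nearest protein-coding gene body within 50 kb in the RefSeq table of GRCm38.p6. Named were the 10 leading regions, those at list genes, genes with the most closed regions, regions within 1 kb of a start, genes that also held an opened region, and called neighbours. Ptprj, Itpr3, Sptssa and Arhgap4 stand for the start-site regions. The regions, lists and rules were chosen with earlier results of these data known. Alternatives were list length, a q minimum, joining of peaks, gene and neighbour distances, pairing, and leaving out libraries. Motif counts over all regions were not run.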

Additional observations from a re-analysis of the deposited data

Results flagged for a closer look

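In 38 groups of 6 libraries checked for a library far from the others, 4 had one; chance gives about 1 in 20. Unstimulated diabetic replicate 6 had the lowest median tag number at closed regions, 11 tags, with 50054 peaks in its list. The same library had the lowest fold of its group at the leading Hpgd region, 6.18, and at the Celf6 region, 6.78. Unstimulated control replicate 6 had the lowest background of its group, 0.664 tags, and its 645 closed regions with a peak lay within the range of the other control libraries.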

How the results depend on the processing

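The number of closed regions stayed within 1.5 times of 659 in every setting, but many of the regions were replaced: 449 with lists of equal length (161 shared), 668 at a −log10 q of at least 5 (198 shared), 673 by summits within 250 bp (655 shared), 631 where peaks had to cover 50% of the region (229 shared), and 682 to 811 when 1 library was left out (658 or 659 shared). With 1 library left out, the rule still allowed 1 missing unstimulated library and 1 stimulated peak among those left. Nearly all of the 659 regions therefore had to be shared, and this setting does not test their dependence on single libraries. Of 136 named regions, 43 were kept at equal length and 50 at the q minimum. The share within 1 kb of a gene end became 6.24% at equal length and 7.28% with all genes, and was 2.12% within 500 bp and 7.74% within 2 kb. The share inside a gene became 63.0% with all genes. The cause of these shifts was not tested.

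Neighbours lost and gained numbered 55 and 39 at equal length (20.5% and 14.6% of 268, against 14.3% and 13.4% over all), 62 and 36 within 5 kb, 415 and 178 within 50 kb, and 59 and 35 when adjusted over all regions, where 29 of 47 called neighbours of named regions kept their call. Within 50 kb the gained share, 9.004%, was below its background. When 1 library was left out, 87 to 172 were lost and 53 to 82 gained. With the replicate block (exact McNemar test over 12 pairs) 54 were lost and 35 gained of 459, 11.8% and 7.63%, against 8.98% and 6.65% over all. The replicate numbers were not taken as pairs: correlations of deviations ran from −0.00979 to 0.00902 over 12 pairs, and 2 of 12 correlated best with their own number. Depth limits every statement, since the weakest peaks had 5 tags and closed regions a median of 13.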
